A study of Solanum commersonii and Solanum tuberosum with 8 samples.

Results

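A late class of 106 array clones, out of 11366 measured, was at least 2-fold higher in leaves after 7 d of cold in both Solanum commersonii (Sc) and Solanum tuberosum (St). Sc is a wild potato that tolerates freezing, and St is the cultivated potato. The clones were chosen from their measured ratios. Each had a log2 ratio of 1 or more at 7 d in both species, was not at 1 or more at 24 h in both species together, and was below 1 in plants carrying 35S::AtCBF3 in both species. Of 234 clones at least 2-fold higher at 7 d in both species, which are 2.06% of all clones, the 24 h criterion left out 64 and the 35S::AtCBF3 criterion 101. Both criteria applied to 37 of these, so that 128 were left out and 106 remained.

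The cold and transgenic RNA came from wild-type plants of each species kept at 2°C for 2 h, 24 h or 7 d, and from warm-grown plants of each species carrying 35S::AtCBF3. This transgene holds the Arabidopsis CBF3 gene behind a constitutive promoter, so that expression is not limited to the cold or to a cell type. All plants had spent 3 weeks at 25°C under a day of 16 h of light, and the move to the cold came 8 h after dawn. The control of the 2 h cold plants was wild type held in the warm for 2 h, that of the 24 h and 7 d cold plants was wild type held in the warm for 24 h, and that of the transgenic plants was warm wild type. The 7 d plants were thus 6 days older than their controls, and the labels give a light level of 50 in the cold against 350 in the warm, in 1 unit. The effects of age and light cannot be told apart from that of cold. The transgenic material came from 3 independent lines of Sc and 2 of St, and the cold treatments from 3 independent experiments.

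Each sample was 1 column of ratios into which the authors had merged 3 slides (2 for St 35S::AtCBF3). A column held 1 value per clone and no error, so no SD, p-value or test between conditions could be computed, and every result is a size or a count. A positive ratio was read as a higher level under cold or the transgene, which is the likely direction from the order of the channels in the labels. If the ratios ran the other way, the class would be a late low one. For scale, the central spread of all clones (SD from the median absolute deviation) ran from 0.22 to 0.43 log2 units in the cold columns and was 0.37 and 0.48 in the 35S::AtCBF3 columns of Sc and St. The clones have names such as STMIM42, and the files do not pair them with genes. The leaf identity of the samples and the level of the transgene could therefore not be checked.

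Plants of temperate origin can gain freezing tolerance over days at low, non-freezing temperatures, a process called cold acclimation. CBF proteins are transcription factors that are induced early in the cold and bind a short element in the promoters of many cold-responsive genes. In Arabidopsis, CBF3 expressed in the warm is enough to raise such genes. Other cold-responsive genes are controlled outside this pathway, and some reach a new level only after days in the cold. Sc acclimates and St does so little or not at all.

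The level of the class after 7 d was similar in the species and near the threshold that selected it. In Sc the log2 ratios at 7 d had a lowest value of 1.02, a median of 1.30 and a highest of 2.51, or 2.03-fold, 2.47-fold and 5.68-fold. In St they had a lowest value of 1.002, a median of 1.25 and a highest of 2.63, or 2.00-fold, 2.37-fold and 6.18-fold. These values chose the clones and describe them only. Of all clones, 3.10% were at least 2-fold higher at 7 d in Sc and 4.04% in St. In 37 of the 106 members the lower of both 7 d ratios was under 1.1. The 3 members closest to the threshold had 1.0019, 1.0024 and 1.0029 in the species with the lower ratio, and the 3 closest clones outside it had 0.9987, 0.9984 and 0.9957. At 24 h, the 3 members nearest to 2-fold in both species had lower values of 0.915, 0.792 and 0.767, and the 3 nearest clones left out had 1.055, 1.057 and 1.154. The clones left out of the class were higher at 7 d. The 37 left out by both criteria had medians of 2.00 in Sc and 2.17 in St, and the 64 left out by 35S::AtCBF3 alone had 1.51 and 1.47. The 27 left out by the 24 h criterion alone had 1.47 and 1.67.

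**Figure D1:**
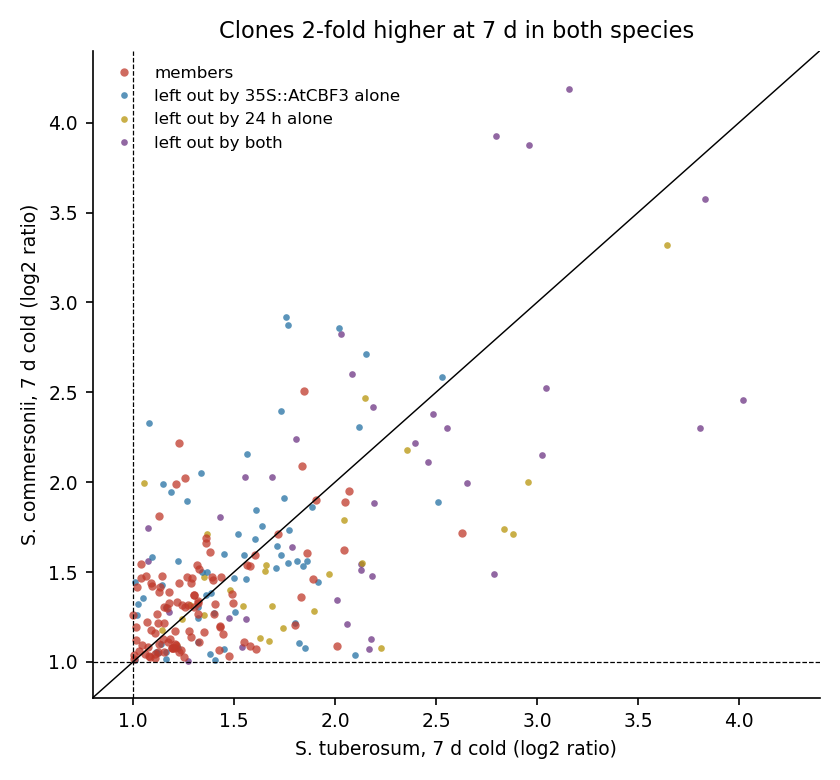
Log2 ratios at 7 d of cold in Sc (vertical axis) and St (horizontal axis) for the 234 clones at least 2-fold higher in both; each point is 1 clone, dashed lines mark 2-fold and the solid line marks equal ratios. The 106 members (red) crowd near the 2-fold corner, with medians of 1.30 and 1.25, and the 37 clones left out by both criteria (purple) reach highest.

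No member differed by 2-fold between the species at 7 d. The difference of Sc minus St had a median of 0.00 and ran from -0.92 to 0.99. Among all clones 1.13% were at least 2-fold higher in Sc and 1.28% in St at that time, and the rule, which asks for a high ratio in both species, narrows the difference. Across the 106 members the 7 d ratios of the species correlated with r = 0.46 and rho = 0.41, and those of all clones with 0.82 and 0.75. The species share no control, but the members were chosen on both columns and several may carry 1 gene.

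The clones with the highest mean of the 7 d columns were STMIM42 and STMIA81. In Sc the log2 ratio of STMIM42 was 0.30 at 2 h, 0.65 at 24 h and 2.51 at 7 d, and in St it was -0.03, 0.47 and 1.85. With 35S::AtCBF3 it was at 0.17 and 0.72 in Sc and St. The largest step of STMIM42 thus fell between 24 h and 7 d in both species. STMIA81 had 0.20, 0.79 and 1.72 in Sc, and 0.36, 2.21 and 2.63 in St. With 35S::AtCBF3 it was at 0.26 and -0.21. STMIA81 had thus passed 2-fold by 24 h in St, but not in Sc.

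At 24 h most members stood slightly above their control. In Sc the lowest, median and highest ratios were -0.62, 0.21 and 2.02, and in St -0.37, 0.32 and 2.24. Ratios above 0 were found in 79 members in Sc and 81 in St, against 50.5% and 50.7% of all clones. Both were above 0 in 71 members (67.0%, against 37.4% of all clones) and both below 0 in 17 (16.0%, against 36.2%). At least 1.5-fold higher in both were 14 (13.2%, against 7.53%), and 69 members were within 1.5-fold of the control in both species (65.1%, against 73.6%). The 24 h and 7 d columns share a warm control within each species, and the rule used the 24 h values, so these counts are not independent of the choice at 7 d.

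In 94 of the 106 members neither species reached 2-fold at 24 h (88.7%, against 87.6% of all clones). The other 12 did so in 1 species, 2 of them in Sc (2.65% of all clones) and 10 in St (11.9%). The 2 in Sc had 24 h ratios of 1.45 and 2.02, and in St of -0.23 and -0.03. Both exceeded 2-fold in St at 7 d, at 1.84 and 1.23. The 10 in St included STMIA81 and a clone at 2.24, the highest of the class at that time. The species difference of Sc minus St at 24 h had a median of -0.12 and reached 2-fold in 7 members. It was positive in 2 of these (0.563% of all clones) and negative in 5 (9.14%).

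**Figure D2:**
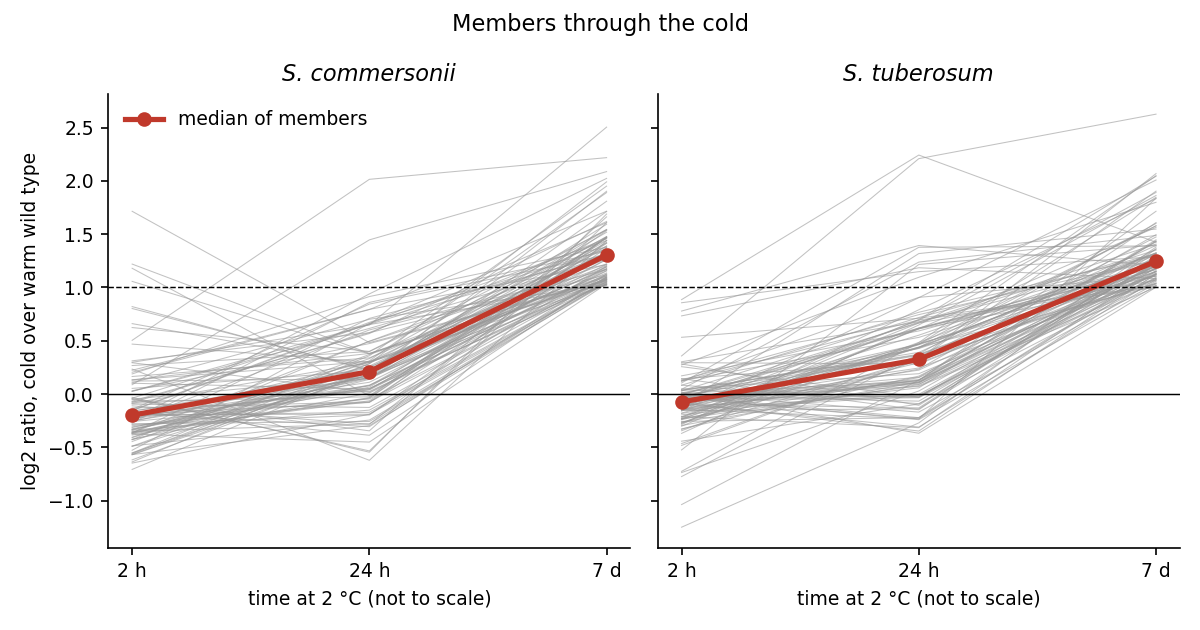
Log2 ratios of the 106 members at 2 h, 24 h and 7 d of cold in Sc (left) and St (right); thin lines are clones, the red line is their median and the dashed line marks 2-fold. The medians are -0.20, 0.21 and 1.30 in Sc and -0.08, 0.32 and 1.25 in St. The larger step lies between 24 h and 7 d, which the rule favours. The time axis is not to scale.

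The ratio stood higher at each later time in most members. It was higher at 24 h than at 2 h and higher again at 7 d in 86 members in Sc and 85 in St, against 19.5% and 20.1% of all clones. In 71 members this order held in both species (67.0%, against 9.62%). The 7 d ratio was the highest of the 3 times in 104 members in Sc and 103 in St, against 32.6% and 35.6% of all clones. This held in both species in 103 members (97.2%, against 24.5%), which the choice of a high 7 d ratio favours. The 7 d ratio minus the 24 h ratio had a median of 1.11 in Sc and 1.03 in St, or 2.16-fold and 2.05-fold. It reached 2-fold in 66 members in Sc and 57 in St, against 2.21% and 1.98% of all clones. Its lowest values were 0.20 in Sc and -0.82 in St, the St value in a clone that stood at 2.24 after 24 h and 1.42 after 7 d. The rule asks for a high ratio at 7 d and limits the ratio at 24 h. It therefore also favours a 2-fold gain between these times and a rising order.

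The columns for 2 h of cold were not used to choose the class, and their warm control was a separate one. There the members leaned below their control. In Sc the lowest, median and highest log2 ratios were -0.71, -0.20 and 1.72, and in St -1.25, -0.08 and 0.89. Ratios below 0 were found in 77 of the 106 members in Sc (72.6%, against 47.9% of all clones) and in 74 in St (69.8%, against 50.5%). Both ratios were below 0 in 66 members (62.3%, against 34.3%) and both above 0 in 21 (19.8%, against 35.8%). The median of -0.20 is 0.87-fold, and 89 members were within 1.5-fold in both species (84.0%, against 82.3%). Of the 234 clones high at 7 d, 48.3% were below 0 in Sc and 56.8% in St. Of those left out by the 24 h criterion alone 7.41% and 22.2% were, and of those left out by both criteria 13.5% and 29.7%. The lean of the members is thus not independent of the rule.

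At 2 h 4 members were at least 2-fold higher in Sc and 0 in St, against 10.9% and 7.87% of all clones. Of the 234 clones high at 7 d, 24 (10.3%) were so in Sc and 17 (7.26%) in St. Among the 27 left out by the 24 h criterion alone 5 were so in each species, and among the 37 left out by both criteria 12 in Sc and 11 in St. The 24 h criterion thus took out many clones high at 2 h, and the low count in the members is not independent of the rule. Among the 64 left out by 35S::AtCBF3 alone it was 3 in Sc (4.69%) and 1 in St (1.56%). The 4 members had ratios of 1.06, 1.18, 1.22 and 1.72 in Sc, and of 0.27, 0.10, 0.78 and 0.89 in St. All 4 were among the 10 members that were 2-fold higher in St at 24 h. At least 2-fold lower at 2 h were 0 members in Sc (0.15% of all clones) and 2 in St (0.334%). Across the 106 members the 2 h ratios of the species correlated with r = 0.54 and rho = 0.43, against 0.86 and 0.61 across all clones. The species difference at 2 h, Sc minus St, had a median of -0.09 and reached 2-fold in 2 members, both higher in Sc (3.82% of all clones).

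**Figure D3:**
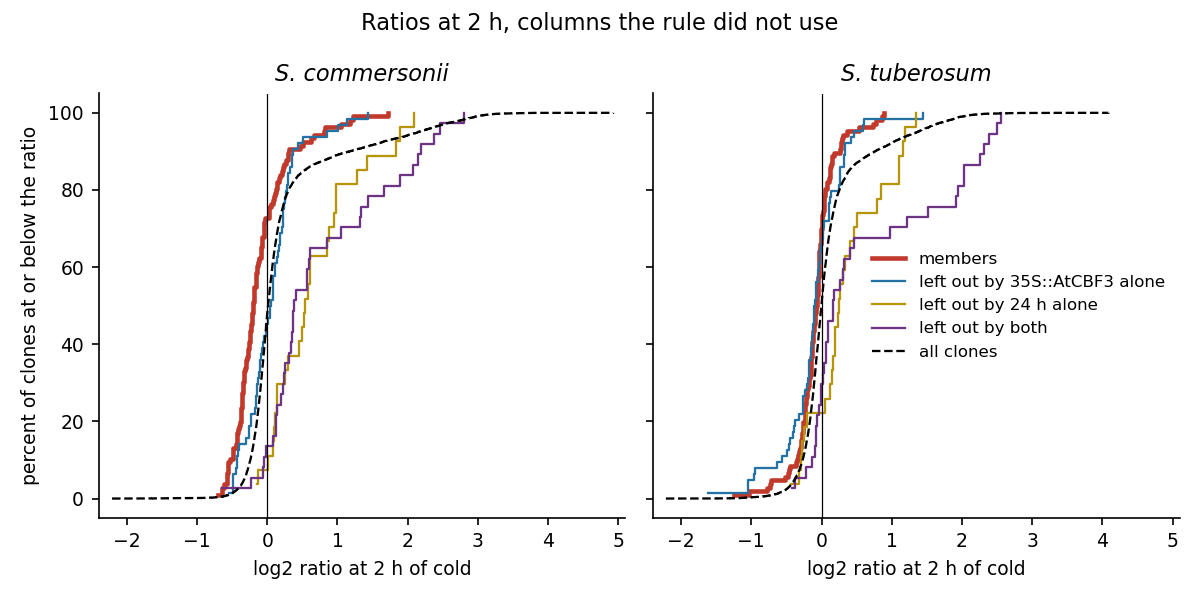
Cumulative percent of clones (vertical axis) by log2 ratio at 2 h of cold (horizontal axis) in Sc (left) and St (right), for the members, the clones high at 7 d that were left out by each criterion, and all clones (dashed). The members have crossed 72.6% and 69.8% at a ratio of 0, and the clones left out by the 24 h criterion lie to the right.

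The other clones that were high at 7 d in both species had higher median ratios at 2 h in Sc than the -0.20 of the members. The 64 clones left out by 35S::AtCBF3 alone had a 2 h median of 0.05 in Sc, with 29 below 0 (45.3%). In St the median of the members, -0.08, lay close to the -0.10 of these 64 clones, of which 42 were below 0 (65.6%). The 27 clones left out by the 24 h criterion alone had medians of 0.54 in Sc and 0.25 in St, with 2 and 6 below 0. The 37 left out by both had 0.38 and 0.17. The 94 members that were not 2-fold higher at 24 h in either species had 2 h medians of -0.23 and -0.10, and the 12 others 0.35 and 0.26. With 1 value per clone these differences were not tested.

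With 35S::AtCBF3 in the warm the members were not 2-fold higher, by the rule, but their ratios leaned above 0 in both species. In Sc the lowest, median and highest log2 ratios were -0.84, 0.29 and 0.97, and in St -2.09, 0.28 and 0.998. The medians are 1.22-fold in both. Ratios above 0 were found in 84 members in Sc (79.2%, against 51.2% of all clones) and in 76 in St (71.7%, against 50.8%). Both were above 0 in 58 members (54.7%, against 31.9%), and both below 0 in 4 (3.77%, against 29.9%). The signs were opposite in 44 (41.5%, against 38.1%), with 26 above 0 in Sc and below 0 in St (24.5%, against 19.3%) and 18 the reverse (17.0%, against 18.8%). The rule cuts the upper end of these columns and would by itself lower the counts above 0. Of the 234 clones from which the class was chosen, 83.3% were above 0 in Sc and 78.6% in St. That set includes the clones left out for a high 35S::AtCBF3 ratio. The 27 clones left out by the 24 h criterion alone were also below 2-fold higher with 35S::AtCBF3. Of these, 51.9% were above 0 in Sc and 44.4% in St, with medians of 0.08 and -0.04. The rule took out clones high with 35S::AtCBF3, which by itself makes the shares of the members lower than those of the 234 clones. That comparison therefore does not show how large the lean is. The 27 clones did not share the lean, and this difference was not tested. The sources used here do not say if the transgenic plants and the cold plants shared a control.

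At least 1.5-fold higher with 35S::AtCBF3 were 24 members in Sc (22.6%, against 11.4% of all clones) and 27 in St (25.5%, against 14.8%). In 14 members this held in both species (13.2%, against 5.70%), and in 69 in neither (65.1%, against 79.5%). It held in Sc only in 10 (9.43%, against 5.69%) and in St only in 13 (12.3%, against 9.07%). The 14 had 7 d medians of 1.51 in Sc and 1.72 in St, and the 69 had 1.26 and 1.21. Within 1.5-fold of wild type in both species were 62 members (58.5%, against 62.5% of all clones). The 3 members closest to the 2-fold limit had 0.998, 0.982 and 0.971 in the species with the higher ratio, and the 3 closest clones left out had 1.008, 1.047 and 1.106. In 12 members that ratio was above 0.9.

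**Figure D4:**
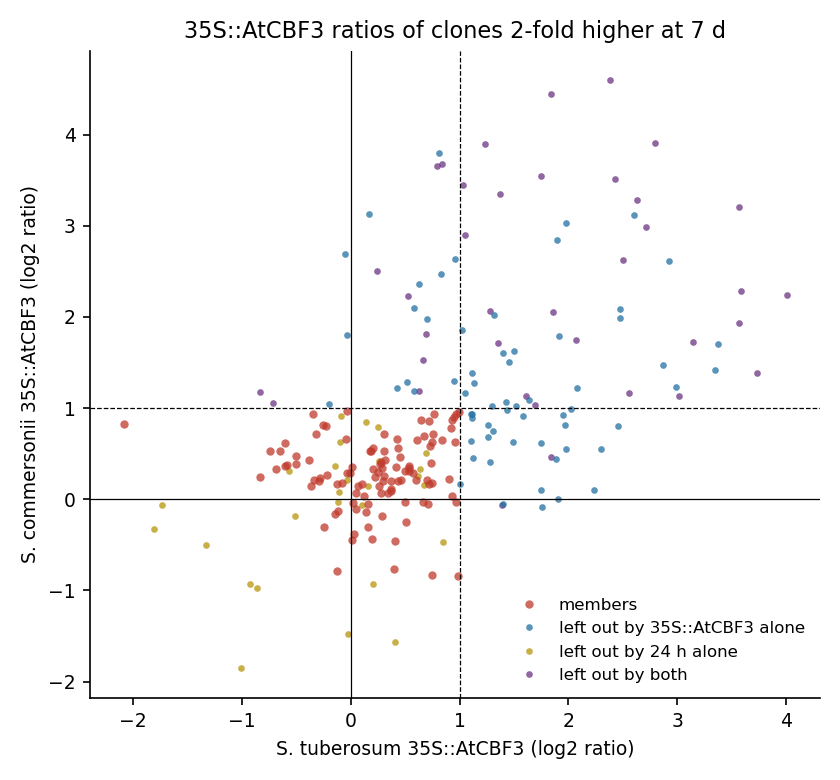
Log2 ratios with 35S::AtCBF3 in warm Sc (vertical axis) and St (horizontal axis) for the 234 clones at least 2-fold higher at 7 d in both species; each point is 1 clone and dashed lines mark 2-fold. The 106 members (red) fill the square below 2-fold, 58 of them above 0 in both species, and 1 lies apart at -2.09 in St.

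Lower ratios with 35S::AtCBF3 were rare among the members. At least 2-fold lower were 0 members in Sc (3.11% of all clones) and 1 in St (7.28%). At least 1.5-fold lower were 4 members in Sc (8.80% of all clones) and 7 in St (14.3%). Of the 64 clones left out by 35S::AtCBF3 alone, 0 were so in either species. Of the 27 left out by the 24 h criterion alone 6 were so in each species (22.2%), and of the 37 left out by both 0 in Sc and 2 in St. The 64 and the 37 each had a 35S::AtCBF3 ratio of 1 or more in Sc or St, by the rule. Few lower ratios among them are thus not independent of the choice. The lowest means of the 35S::AtCBF3 columns were those of STMIW10 and STMHN37. STMIW10 had 0.82 with 35S::AtCBF3 in Sc and -2.09 in St. In the cold it had 0.11, 0.70 and 1.03 at 2 h, 24 h and 7 d in Sc and 0.73, 1.19 and 1.08 in St. The low mean of STMIW10 rests on the St column, which combines only 2 slides. STMHN37 had -0.79 with 35S::AtCBF3 in Sc and -0.13 in St. In the cold STMHN37 had -0.03, -0.55 and 1.69 in Sc, and -1.25, -0.27 and 1.36 in St. It was the lowest member at 2 h in St and stood below its control at each time before 7 d.

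The 35S::AtCBF3 ratios of the species showed no correlation within the class. Across the 106 members they correlated with r = -0.01 and rho = 0.08, against r = 0.52 and rho = 0.55 across the 234 clones high at 7 d. The rule limits the range of both columns in the members and not in the 234 clones. The difference of Sc minus St had a median of -0.04 and ran from -1.82 to 2.91. It reached 2-fold in 13 members, with 10 higher in Sc and 3 in St, against 6.77% and 5.38% of all clones. Between the species at 24 h the members correlated with r = 0.45 and rho = 0.65, and all clones with 0.70 and 0.69. The 234 clones high at 7 d correlated with 0.85 and 0.83 at 24 h. From these the rule took out the clones 2-fold higher in both species at 24 h, which by itself can lower the correlation in the members.

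**Figure D5:**
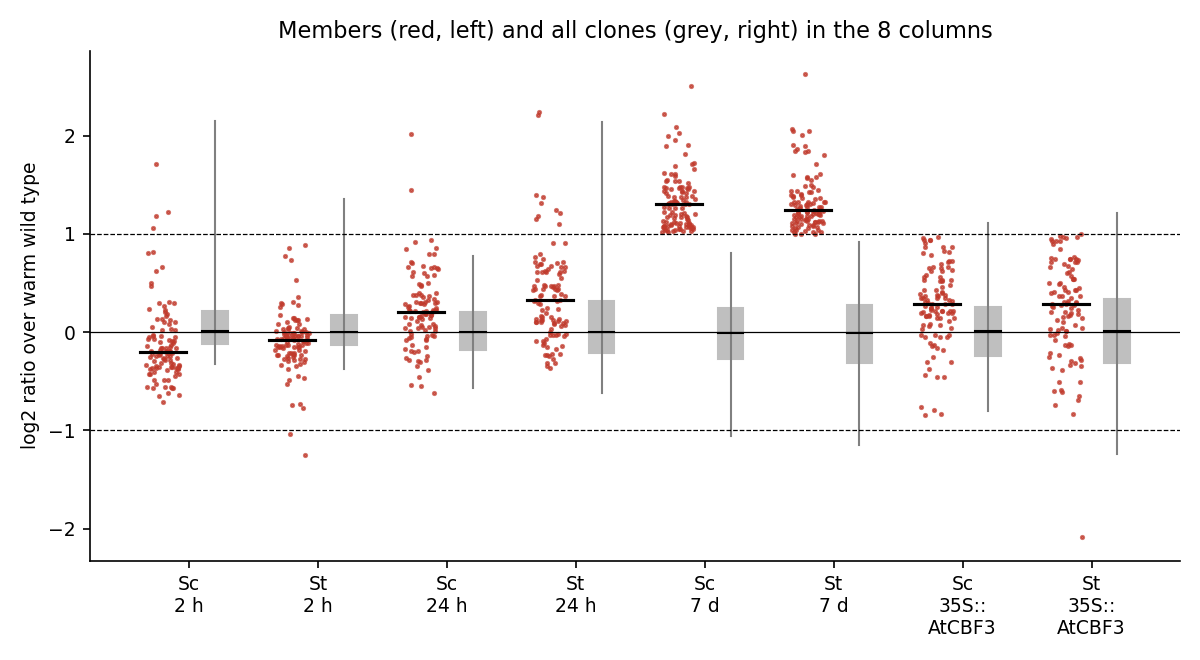
Log2 ratios of the 106 members (red points, black bar at the median) and of all 11366 clones (grey box from the 25th to the 75th percentile, line from the 5th to the 95th, black bar at the median) in the 8 columns. The members lie below the median of all clones at 2 h, slightly above it at 24 h and with 35S::AtCBF3, and above 2-fold at 7 d.

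The likeness of a pair of clones was measured as the root mean square difference of their log2 ratios over the 8 columns, 6 of which the rule used. Among all clones the nearest to a member was another member for 74, a clone high at 7 d but left out for 3 and a clone not high at 7 d for 29. It lay under 0.15 for 71 members (67.0%), and 75.5% of all clones had a neighbour that near. The nearest other member lay at a median distance of 0.13, with a lowest of 0.04 and a highest of 0.66. In 65 of the 106 members (61.3%) it lay under 0.15. Linking all pairs under 0.15 gave 15 groups, the largest of 27 clones, and left 41 members linked to none. Since several clones can carry 1 gene, the number of genes behind the 106 clones may be smaller and is not known. Grouped by the leading 5 characters of the name, the members fell in 80 of 157 blocks, and the block with most held 5 members among its 61 clones.

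The largest linked group held 27 of the 106 members and was more uniform than the class as a whole. In Sc the median of its 27 clones was -0.26 at 2 h, 0.15 at 24 h and 1.201 at 7 d, and in St it was -0.12, 0.13 and 1.18. At 2 h 26 of the 27 were below 0 in Sc and 25 in St. With 35S::AtCBF3 their medians were 0.29 and 0.22, with 27 above 0 in Sc and 19 in St. The group was formed on these same values, so its likeness is a description.

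Some of the smaller linked groups are described here, with their 35S::AtCBF3 ratios. All groups were linked on these same columns, so differences between them are not independent of the grouping. The members ranked 3, 4 and 6 by their 7 d mean lay between 0.091 and 0.128 from each other. These 3 clones had 7 d ratios from 1.89 to 1.95 in Sc and from 1.90 to 2.07 in St. Their 2 h ratios ran from -0.57 to -0.49 and from -0.73 to -0.47, among the lowest of the class, and with 35S::AtCBF3 they were just under 2-fold, from 0.87 to 0.93 and from 0.93 to 0.97. The nearest clone that was high at 7 d but left out by the rule lay 0.167 from 1 of them.

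Another group of 4 clones was also near that limit, from 0.65 to 0.94 with 35S::AtCBF3 in Sc and from 0.64 to 0.84 in St. At 7 d its ratios ran from 1.36 to 1.62 in Sc and from 1.83 to 2.04 in St. A further group of 4 clones lay near its control both with 35S::AtCBF3 and at 24 h. With 35S::AtCBF3 it ran from -0.18 to -0.04 in Sc and from -0.14 to 0.29 in St, and at 24 h from -0.20 to -0.03 and from -0.24 to -0.13. At 7 d these clones stood at 1.37 to 1.47 in Sc and 1.02 to 1.30 in St. A group of 3 clones was higher with 35S::AtCBF3 in Sc, from 0.37 to 0.38, and lower in St, from -0.60 to -0.50. Its 7 d ratios ran from 1.33 to 1.54 and from 1.32 to 1.56.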

How the data were processed

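Leaf RNA was compared on 2-colour arrays, with cold or transgenic RNA in channel 1 and warm wild type in channel 2 of each of 8 samples, per the labels. The authors deposited 1 log2 ratio per clone and sample, in a table of 11366 clones with 0 missing values, and combined the slides of a sample. Per the submitters' processing notes, limma was used, with no version. How background, normalization and spot filters were handled, and the log base, centring and direction, is not given in the sources used here. A log2 scale was assumed, as limma reports ratios that way. Both dyes are listed for each channel, and a dye effect may remain in columns of 3 slides. Medians of the columns ranged between -0.008 and 0.011. Signal intensities were not used here, so dim clones are included, and precision is limited by the few slides. For the transgenic St sample 1 label field names Sc as the genotype; its title and organism give St, which was used.

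The rule was applied to the deposited values with Python 3.11.15, pandas 2.3.3 and scipy 1.17.1, and tested on simulated data. Counts past 2-fold or 1.5-fold in the class are given beside the share of all clones, except where stated. For the 3-fold and scaled alternatives no such shares were computed. Clones are no replicates of a condition, and correlations across them are descriptions. The members, lists and settings were chosen with earlier results of these data known. Named clones are the 2 with the highest 7 d mean and the 2 with the lowest 35S::AtCBF3 mean. The gene lists could not be used, because no table pairs clones with genes. Alternatives were thresholds of 1.5-fold and 3-fold, centred columns, columns scaled to one spread, and stricter 24 h and 35S::AtCBF3 criteria.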

Additional observations from a re-analysis of the deposited data

Results flagged for a closer look

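The 35S::AtCBF3 ratios of 13 members had opposite signs in Sc and St and lay at least 2-fold apart, which is 12.3% of the class against 6.35% of all clones. The rule holds both ratios under 1, so a member with a 2-fold gap must have its lower ratio below 0. The share with opposite signs is thus not independent of the rule. In 10 of the 13 the ratio was higher in Sc and in 3 it was higher in St. Whatever the signs, a 2-fold gap was found in 9.43% (higher in Sc) and 2.83% (higher in St) of the members. Among all clones these shares were 6.77% and 5.38%. The difference of Sc minus St ran from -1.82 to 2.91, and the highest belongs to STMIW10. Opposite signs with a 2-fold gap were found in 3 members at 24 h of cold and in 0 at 2 h. The shares of all clones were not computed at these times, and the rule also limits the 24 h ratios. These counts are therefore not compared with the 13. The gap with 35S::AtCBF3 was not tested, since each column holds 1 value per clone and the St transgenic column combines 2 slides.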

How the results depend on the processing

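A total of 12 results were recomputed under 6 alternatives. Of the 72 values, 41 stayed within 1.5 times the reported count or within the exact binomial 95% interval of the reported median over clones, and 31 did not. That interval treats clones as independent, though several may carry 1 gene. It serves as a yardstick only and does not measure the error of a column. The median at 2 h was below 0 in both species under all 6 alternatives. All of them share clones with the 106, so this is not an independent check. With a 1.5-fold threshold throughout, the class held 378 clones and shared 63 of the 106. Its members past 1.5-fold numbered 17 at 2 h and 4 at 24 h in Sc and 8 and 29 in St, with 8 and 10 lower with 35S::AtCBF3, where the medians were 0.0787 and 0.12. Of all clones, 14.2% and 9.06% were past 1.5-fold at these times in Sc, and 11.9% and 17.1% in St. With 35S::AtCBF3, 8.80% and 14.3% of all clones were at least 1.5-fold lower in Sc and St. At 3-fold the class held 21 clones, 10 of them among the 106. Of the 21, 0 at 2 h and 0 at 24 h were past 3-fold in Sc, 3 at 24 h in St and 0 lower with 35S::AtCBF3 in St, and the 35S::AtCBF3 medians were 0.87 and 0.77. With columns scaled to one spread, the class held 73 clones and shared 68 of the 106. A scaled value of 1 is not exactly 2-fold. The class had 8 clones at a scaled value of 1 or more at 2 h and 5 at 24 h in Sc, and 4 at 2 h in St. With 35S::AtCBF3 in St, 0 were lower by as much. In the same scaled units its 2 h medians were -0.26 and -0.22, and the 7 d difference between the species had a median of 0.15. Without clones 2-fold higher at 24 h in either species, 94 clones were left, 0 of them 2-fold higher at 2 h in Sc, 0 at 24 h in Sc or St and 0 lower with 35S::AtCBF3 in St. With a limit of 1.5-fold in the 35S::AtCBF3 columns, 69 clones were left, with 1 and 4 higher at 24 h in Sc and St and 0 lower with 35S::AtCBF3 in St. Centring gave 112 clones, including all 106. Averaging clones of 1 gene was not run, because no table pairs clones with genes. No paired analysis was possible because each sample is 1 column of combined slides, which also leaves no slide to leave out.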
